A study of Sus scrofa with 92 samples.

Results

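Proteasome genes were followed across 9 tissues of young pigs: the subunits of the core particle, of its regulatory cap and of the alternative activators. Members were all genes whose pig symbol starts with PSMA, PSMB, PSMC, PSMD, PSME or PSMF, and the symbol, not a measured value, chose them. Of 25322 gene IDs measured, 11804 carried a symbol and 28 were members. By role, 3 encode alpha ring subunits (PSMA1, PSMA3, PSMA5), 2 constitutive beta ring subunits (PSMB1, PSMB7), and 2 inducible catalytic subunits of the immunoproteasome (PSMB8, PSMB9). The cap is represented by 5 ATPases of its base (PSMC1, PSMC2, PSMC3, PSMC5, PSMC6), by 2 other base proteins (PSMD1, PSMD4) and by 6 lid proteins (PSMD3, PSMD6, PSMD11, PSMD12, PSMD13, PSMD14). These 18 alpha, constitutive beta, base and lid genes are called the 18 constitutive genes below. The rest are the assembly chaperone PSMD5, the 3 subunits of the PA28 activators (PSME1, PSME2, PSME3), the PA200 activator PSME4 and 2 tissue-restricted core subunits (PSMA8, PSMB11). PSMC3IP also met the naming rule, although it encodes a partner of a meiotic recombinase and no proteasome subunit. The name table listed 44 symbols of this kind, and the 16 others, PSMB10, PSMF1, PSMA2 and PSMD2 among them, were not analysed here.

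The proteasome is the barrel-shaped protease that degrades ubiquitin-tagged proteins in the cytosol and nucleus. Its alpha rings gate the barrel, its beta rings hold the cutting sites, and the ATP-driven cap recognises, unfolds and feeds in the substrate. Interferon and cells of the immune system exchange the catalytic beta subunits for inducible ones, which with the PA28 activator favour peptides suited to presentation on MHC class I. PA200 is a large single-chain activator that opens the barrel without ubiquitin or ATP, and in skeletal muscle the proteasome carries out much of the breakdown of contractile proteins.

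Total RNA of pigs 60 days old was sequenced in 92 libraries, 1 per breed and tissue, from 5 Western breeds (Berkshire, Hampshire, Landrace, Large White, Piétrain) and 5 Chinese ones (Bamei, Jinhua, Meishan, Rongchang, Tibetan wild boar). The grouping by origin comes from general knowledge. Single tissues gave 83 libraries: 10 each of spleen, psoas major and longissimus dorsi, 9 each of heart, liver, kidney, subcutaneous adipose and ovary, and 8 of lung. Lung was missing for Rongchang, and for Tibetan wild boar only spleen and both muscles were sequenced. The other 9 libraries were mixtures of tissues of a breed whose composition the labels do not give. No treatment or genotype is named, and the labels do not say whether animals were pooled or whether the tissues of a breed came from 1 animal, so p-values measure only the spread between these libraries.

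Expression was deposited as FPKM, fragment counts divided by gene length and library size, and read depth is unknown. Totals ran from 519075 to 2196138 FPKM, and 10175 to 14561 genes reached 1 FPKM per library. Levels below are scaled FPKM, divided by a median-ratio factor per library so that the typical gene is level across libraries. The factors ran from 0.528 to 0.787 in longissimus dorsi and from 1.58 to 1.71 in ovary, so scaling raises muscle and lowers ovary, and the direction of many proteasome genes depends on it. Each tissue class (both skeletal muscles form 1 class) was set against the mean of the other 7 classes, with breeds as replicates and blocks, and a gene was called at a limma adjusted p (Benjamini-Hochberg over all genes) under 0.05. Calls that were the same with the scaled values, the deposited FPKM and quantile-normalised values are described as held in all 3 scalings. Defining markers of every tissue that had a symbol in the files were highest in the labelled class, in 5 of 5 cases for liver, spleen, muscle and ovary and in 4 of 4 found for heart, lung and kidney. For subcutaneous adipose 3 of 5 markers were found and all 3 were highest there.

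The 18 constitutive genes, PSMD5 and the 4 PSME activator genes were expressed in all 83 tissue libraries. PSMA8 and PSMB8 aside, the members higher in 1 class than in each other class in all 3 scalings were as follows. They were PSMB9, PSME1 and PSME2 in spleen, PA200 with 2 lid proteins and an ATPase in muscle, and PSMC3IP in ovary. For PSME1 and PSME2 the margin over liver was small and was lost in some fits. Of the 28 members 27 passed the low-level filter of 1 FPKM in 3 libraries. PSMB11, the thymus-specific catalytic subunit, was listed at 0 in all 92 libraries. PSMA8, known for its place in proteasomes of male germ cells, passed the filter only through ovary, and PSMB8 only through spleen, so their high levels there are described without support from a test. Calls of either gene as lower in other classes are favoured by the same filter, and the counts of lower members below include them. All 27 differed among the 9 tissues, but so did 98.9% of the 17207 genes tested.

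The 18 constitutive genes kept an ordinary spread between tissues. Their median range between the highest and the lowest tissue mean was 1.52 on the log2 scale, a 2.87-fold range, against 1.75 (3.37-fold) over all genes tested. Tissue accounted for a median of 82.1% of their variance and breed for 5.58%, compared with 82.5% and 4.27% over all genes. They rose and fell together from library to library. Over the 83 tissue libraries the median Pearson correlation among their 153 pairs was 0.82, and it was 0.69 after tissue means were subtracted. These libraries share the scaling and the breed of origin, so the correlations are given as a description.

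Among the core subunits, PSMB7, which carries the trypsin-like site, was highest in liver with the scaled values, at a lowest, median and highest level of 141, 153 and 188 scaled FPKM. On the deposited FPKM and with quantile normalization it was higher in ovary than in each other class, and relative to the 18 constitutive genes of a library its mean log2 level was 1.65 in ovary and 1.49 in liver. Lung held 48.6, 53.2 and 59.2 scaled FPKM of PSMB7, and on this scale its 8 libraries lay below all libraries of the other tissues. PSMB7 was lower in lung than the mean of the other classes in all 3 scalings. It was lower than in each other class only with the scaled values. The non-catalytic beta subunit PSMB1 was also highest in liver with the scaled values, with a median of 174 in liver, 134 in heart, 141 in psoas major, 145 in longissimus dorsi, 100.1 in adipose, 93.3 in spleen, 77.6 in ovary, 73.4 in lung and 73.3 in kidney. PSMA3, an alpha ring subunit, had its lowest values in ovary at 17.1, 18.3 and 24.2 and its highest in longissimus dorsi at 51.3, 71.2 and 96.4. These 2 groups did not overlap. PSMA5 varied in the same way, with medians of 120 in longissimus dorsi, 108 in psoas major and 36.4 in ovary. On the deposited FPKM both alpha subunits were instead higher in spleen than in each other class.

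With the scaled values, 20 of 27 members were called higher in skeletal muscle and 6 lower, where all genes gave 32% and 54.1%. The median log2 difference of the members was 0.79, against -0.18 over all genes. Liver gave 22 higher and 3 lower, against 32.5% and 47.9%, with a median of 0.54 against -0.14. Heart gave 17 higher and 3 lower, against 27.6% and 49.1%, and a median of 0.25 against -0.16. Kidney had no member higher and 23 lower, against 32% and 43.3%, and lung 2 higher and 23 lower, against 32.1% and 41.7%. Their median log2 differences were -0.48 and -0.59, where all genes had -0.09 in both. Subcutaneous adipose gave 3 higher and 14 lower, against 26.6% and 46.5%, with a median of -0.18 against -0.14.

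These class medians moved with the scaling. On the deposited FPKM the members' median was -0.06 in muscle, where all genes had -0.65, and -0.13 in liver against -0.53. It was -0.04 in lung against 0.31, and 0.28 in ovary against 0.50. In muscle and liver the members' median lay above that of all genes in all 3 scalings, and in lung it lay below. In ovary it lay below with the scaled and deposited values and slightly above with quantile normalization (-0.09 against -0.10). Calls held in all 3 scalings were fewer: 10 higher and 6 lower in muscle, against 11.9% and 47.1% of all genes, and 0 higher and 17 lower in kidney, against 28.1% and 32.8%. Liver kept 2 higher and 2 lower, against 15.4% and 42.7%, while 8 of its members were called in opposite directions by different scalings. Heart kept 3 higher (PSMC3, PSMC6, PSME4) and 2 lower, against 16.5% and 41.3%.

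Within a library, scaling cancels, so each member was also set against the mean log2 level of the 18 constitutive genes of the same library. The heatmap of these relative levels shows the groups described next.

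**Figure D1:**
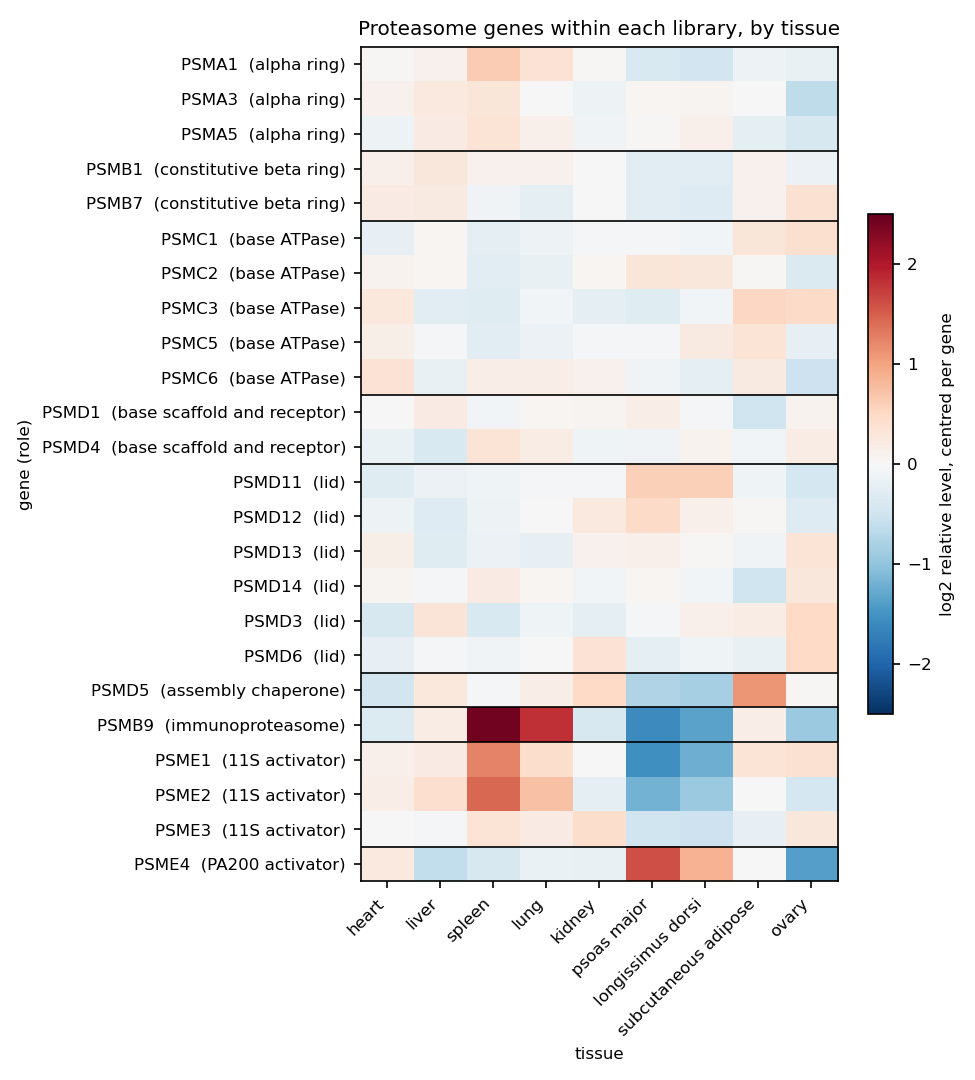
Relative level of 24 proteasome genes in 9 tissues. Each cell is the mean log2 level over breeds relative to the 18 constitutive genes of the same library and centred per gene, on a colour scale of log2 units. PSMB9, PSME1 and PSME2 are raised in spleen and lung and low in both muscles, PSME4 is raised in psoas major and longissimus dorsi and low in ovary, and PSMD5 is raised in adipose.

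In spleen PSMB9 and the PA28 alpha and beta subunits PSME1 and PSME2 were higher than in the other classes, PSME1 and PSME2 only narrowly so against liver. The cap genes PSMC3, PSMC5 and PSMD3 were lower in spleen in all 3 scalings. PSMB9, the inducible counterpart of a constitutive catalytic subunit, was present at low levels throughout: the lowest, median and highest spleen values were 2.40, 2.68 and 4.44 scaled FPKM. Lung had 1.08, 1.31 and 2.57, and liver 0.332, 1.14 and 2.54. Heart had a median of 0.767, kidney 0.608, adipose 0.579, longissimus dorsi 0.447, psoas major 0.354 and ovary 0.319. Spleen was thus above every library of kidney, psoas major, longissimus dorsi, adipose and ovary, and overlapped the highest values of lung, liver and heart, the last being 2.59 in Meishan. PSMB9 was 2.23-fold higher in spleen than in the other classes on the log2 scale with a pseudocount of 1 (log2 difference 1.16 ± 0.09 SE, limma adjusted p 3.37e-20). Lung was the only other class with PSMB9 held higher in all 3 scalings, at a log2 difference of 0.49 ± 0.09 (adjusted p 3.8e-06). Down the order of tissues, heart did not differ from liver or adipose, and kidney, muscle and ovary did not differ from one another in the pairwise limma tests (adjusted p 0.0613, 0.696 and at least 0.154).

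PSMB8, another inducible catalytic subunit, had very low values. It was listed at 0 in 41 of 92 libraries and never exceeded 2.05 FPKM as deposited. Spleen had 0.110, 0.798 and 1.46 scaled FPKM, with the lowest value in Meishan, and lung had a median of 0.291. Since PSMB8 entered the tests only through spleen, its call there (log2 difference 0.67 ± 0.06, limma adjusted p 9.11e-18) is given for completeness. The levels of PSMB8 and PSMB9 were far below those of the constitutive PSMB7, whose spleen median was 72.6. Whether the gene models and the assignment of reads behind the deposited values capture PSMB8 and PSMB9 in full is not given in the sources used here and was not tested. Their levels, and the ratio to PSMB7 below, are therefore compared between tissues only and are not amounts to set against other subunits.

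PSME1 and PSME2 build the PA28 ring that caps the barrel in interferon-treated cells, and both were abundant. PSME2 reached 62.0, 97.1 and 126 in spleen, 57.0, 76.8 and 139 in liver, and 37.4, 51.6 and 140 in heart. Its medians elsewhere were 45.4 in lung, 38.9 in longissimus dorsi, 32.3 in psoas major, 30.8 in adipose, 24.7 in kidney and 21.1 in ovary. The highest value was that of Meishan in each of these tissues but adipose, where Hampshire had 92.3. PSME1 followed with medians of 228 in spleen, 196 in liver, 134 in heart, 124 in adipose, 119 in ovary, 97.9 in lung, 88.3 in longissimus dorsi, 86.3 in kidney and 70.8 in psoas major. In spleen PSME2 was 2.31-fold higher than in the other classes (log2 difference 1.21 ± 0.09 SE, limma adjusted p 1.47e-20) and PSME1 1.92-fold higher (0.94 ± 0.10, adjusted p 5.21e-14). PSME3, which forms a nuclear PA28 ring of its own and does not respond to interferon, had a spleen range of 22.3 to 28.2 and medians from 17.8 in lung to 32.9 in liver. Its spleen difference was 0.03 and not called with the scaled values, but it was called higher on the deposited FPKM (0.42) and with quantile normalization (0.20). Relative to the 18 constitutive genes PSME3 stood at 0.28 ± 0.07 SD in spleen, with 8 of 8 breeds higher.

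Counts in spleen were 6 higher and 15 lower of 27, where 31.9% and 48.2% of all genes were called, and the members' median log2 difference was -0.22 against -0.14. The 6 include PSMB8, whose call the filter favours. PSMA1, an alpha ring subunit (0.41 ± 0.07), and PSMC3IP (0.27) were higher beside it, PSMB9, PSME1 and PSME2. The lowest were the lid protein PSMD3 (-0.67), the ATPases PSMC3 (-0.64), PSMC5 (-0.60) and PSMC1 (-0.56). In all 3 scalings 6 stayed higher and 4 lower (PSMA8, PSMC3, PSMC5, PSMD3), against 31.9% and 34.9%. The lower call of PSMA8 is likewise favoured by the filter. PSMB9, PSME1 and PSME2 were each higher in spleen than in every other class taken singly, in all 3 scalings. This rule was met by 10.2% of all genes, and by 8.23% in all 3 scalings. PSMB8 met it too, but is not counted as support. For PSME1 and PSME2 this rests on liver, from which spleen differed by 0.29 (adjusted p 0.0432) and 0.28 (adjusted p 0.0321). Both lost it without Berkshire, Piétrain, Bamei or Jinhua, or without the breed block, and PSME1 also with no filter on low values, while PSMB9 met it in each of these fits.

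Relative to the 18 constitutive genes of the same library, PSMB9 was 6.26-fold higher in spleen than in the other classes (log2 2.65 ± 0.68 SD, 8 of 8 breeds with all tissues) and 3.93-fold higher in lung (8 of 8). The difference was -1.98 ± 0.67 in skeletal muscle, with 8 of 8 breeds lower. PSME2 stood at 1.56 ± 0.39 in spleen and -1.46 ± 0.47 in muscle, and PSME1 at 1.26 ± 0.50 and -1.88 ± 0.52, again in 8 of 8 breeds each. With the scaled values the 18 constitutive genes were themselves called higher in muscle, which lowers the relative values there.

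An inducible and a constitutive catalytic gene were compared within each library by the log2 ratio of PSMB9 to PSMB7, the only pair of inducible and constitutive catalytic genes with values throughout. PSMB9 does not replace PSMB7 in the particle, so the ratio compares the kinds of subunit and not a swap at 1 site. Median ratios were -4.72 in spleen, -5.22 in lung, -7.11 in adipose, -7.13 in liver, -7.20 in kidney, -7.39 in heart, -8.47 in longissimus dorsi, -8.57 in psoas major and -8.64 in ovary. Spleen values, -4.91 to -4.18, and lung values, -5.57 to -4.42, overlapped each other. The other 7 tissues reached as high as -5.45 in adipose, so a few of their libraries lay within the lung range and none within the spleen range. Spleen was 6.77-fold above the other classes (log2 2.76 ± 0.68 SD, higher in 8 of 8 breeds, exact two-sided sign-flip test, adjusted p 0.0208 over 8 classes). Lung was 4.78-fold above (8 of 8, exact adjusted p 0.0208), and muscle 3.01-fold below, with 0 of 8 breeds higher and the same exact adjusted p. The smallest unadjusted exact p that 8 breeds allow is 0.0078125. In ovary the difference was -1.55 with 1 of 8 breeds higher (exact adjusted p 0.0313), and the call was lost when any of the breeds other than Berkshire was left out. The difference ran from -1.77 to -1.30 as each breed was left out in turn. With 1 breed fewer the exact test is coarser, so it cannot tell whether the loss comes from the breed or from the smaller number. Heart, liver, kidney and adipose were not called.

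**Figure D2:**
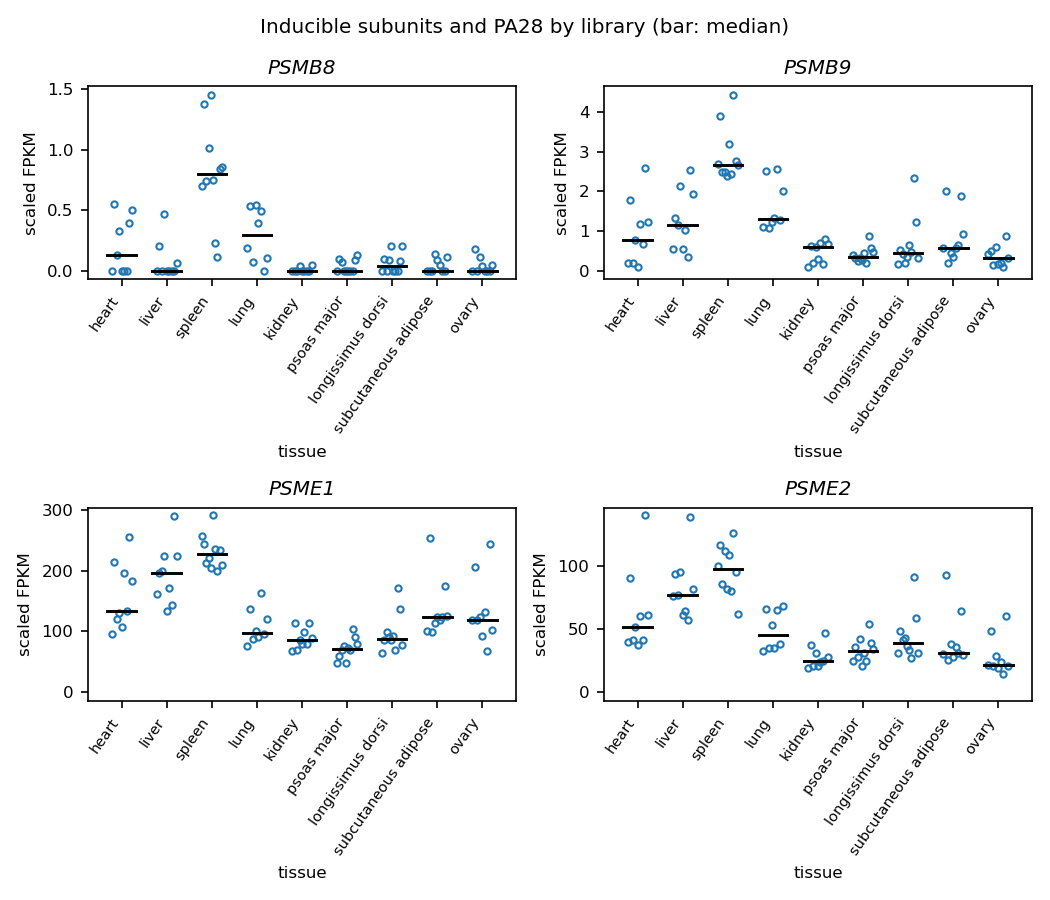
Scaled FPKM of PSMB8, PSMB9, PSME1 and PSME2 in each of the 83 tissue libraries, with 1 point per breed and a bar at the tissue median, on linear axes. Spleen has the highest median for all 4 genes, 2.68 for PSMB9 and 97.1 for PSME2, and the Meishan libraries of heart, liver and longissimus dorsi stand above the others of their tissue for PSME2.

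Markers of leukocytes moved in part with this group. Of 18 such genes 12 were found, and none had a median of 0 in any tissue. Their summed level was 2337 to 3873 scaled FPKM in spleen, 1109 to 2266 in lung and 363 to 1043 in liver. Heart held 83.6 to 338, adipose 264 to 561, kidney 38.4 to 143, psoas major 43.7 to 227, longissimus dorsi 54.1 to 248 and ovary 49.2 to 123. All 12 were higher in spleen and all 12 lower in muscle in all 3 scalings. In lung 10 were held higher, where PSME1 was called in opposite directions by different scalings. Heart had 11 held lower, against 41.3% of all genes, while PSME1 and PSME2 were called higher there with the scaled values only. Liver had 2 held higher and 4 lower, against 15.4% and 42.7%, although PSME1 and PSME2 had their second highest medians there. Across the 83 libraries the mean of the list correlated with PSMB9 at 0.85, with PSME1 at 0.65 and with PSME2 at 0.68. In bulk tissue, fewer cells of a type and less RNA per cell cannot be told apart, and the part of leukocytes in the PSMB9 and PA28 differences was not tested.

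Genes of the interferon response and of antigen presentation were also higher in spleen. The interferon response list, 10 genes of which 7 were tested, had 7 higher in spleen and 7 in lung, and 6 lower in muscle, in all 3 scalings. IRF1, a transcription factor that drives the immunoproteasome genes, differed by 1.90 ± 0.11 in spleen, and GBP1, a GTPase against intracellular microbes, by 1.58 ± 0.11. Of 6 tested genes for antigen presentation, 5 were higher in spleen and 5 lower in muscle in all 3 scalings. ERAP1, which trims peptides for MHC class I, differed by 1.12 ± 0.08 in spleen, TAPBP, the tapasin bridge of the peptide loading complex, by 0.92 ± 0.08, and TAP2, part of the peptide transporter, by 0.40 ± 0.06. The same list was also higher in liver, where CALR, CANX, PDIA3 and TAPBP were held in all 3 scalings, 4 of 6 against 15.4% of all genes. Its median log2 difference was 1.01 in liver and 0.42 in spleen, while PSMB9 was not called in liver with the scaled values and was called in opposite directions by the other 2 scalings. The shares of all genes called in all 3 scalings were 31.9% in spleen, 27.4% in lung and, in the lower direction, 47.1% in muscle.

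In skeletal muscle PA200 and part of the cap stood above every other tissue. PSME4 had a lowest, median and highest level of 33.9, 62.8 and 146 in psoas major and 19.9, 46.4 and 83.9 in longissimus dorsi. Heart held 13.1, 17.9 and 25.1, adipose 6.73, 12.2 and 16.0, liver 9.19, 10.4 and 16.1, and kidney 7.57, 8.22 and 10.8. Spleen had 6.82, 8.14 and 9.67, lung 7.05, 7.70 and 8.46, and ovary 3.71, 3.96 and 4.94. Psoas major lay above every library of the non-muscle tissues, longissimus dorsi overlapped heart through Rongchang and Large White alone, at 19.9 and 23.4, and ovary lay below every other tissue. With quantile normalization PSME4 was also lower in ovary than in each other class, but on the deposited FPKM it was not. Neighbours in the order of scaled levels that did not differ in the pairwise limma tests were liver and adipose (adjusted p 0.852), spleen and lung (0.55), spleen and kidney (0.766), and lung and kidney (0.339). The 13.5-fold range of PSME4 between tissue means was the widest of any subunit or activator and wider than that of 85.7% of all genes.

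PSME4 was 5.41-fold higher in muscle than in the other classes (log2 difference 2.44 ± 0.09 SE, limma adjusted p 2.19e-37). The lid scaffold protein PSMD11, a subunit that helps hold base and lid together, had 60.5, 109 and 265 in psoas major and 69.8, 115 and 240 in longissimus dorsi. Its liver values were 43.0, 54.8 and 68.3, its heart values 37.8, 39.8 and 50.4, and its ovary values 20.6, 25.6 and 28.5. The lowest muscle library, that of Large White in psoas major, fell within the liver range, and all other non-muscle tissues lay below muscle. PSMD11 was 3.29-fold higher in muscle (1.72 ± 0.08), the lid protein PSMD12 2.50-fold (1.32 ± 0.06) and the ATPase PSMC2 2.42-fold (1.27 ± 0.05). Their adjusted p were 1.52e-32, 1.64e-30 and 4e-33.

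**Figure D3:**
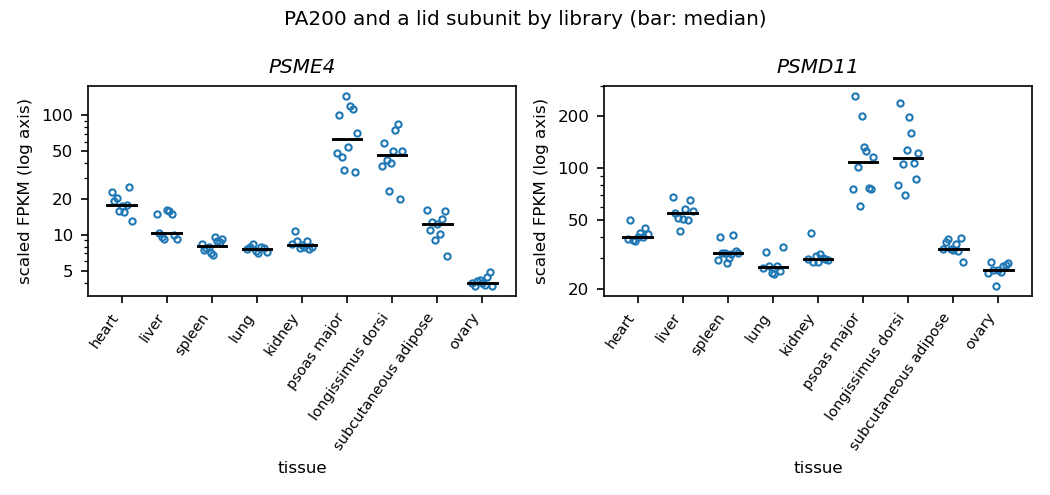
Scaled FPKM of PSME4 and PSMD11 in each of the 83 tissue libraries on a logarithmic axis, with 1 point per breed and a bar at the tissue median. Both muscles are at the top for both genes (PSME4 medians of 62.8 and 46.4), heart comes next for PSME4 at 17.9, and ovary is lowest for both.

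By the rule of being higher than in each other class taken singly, 11 members stood out in muscle with the scaled values, where 8.75% of all genes did. In all 3 scalings 4 did, PSMC2, PSMD11, PSMD12 and PSME4, against 2.83% of all genes, and these 4 also met the rule with the smaller pseudocount, with no filter, without the breed block, without any single breed and without the Meishan ovary. On the deposited FPKM their log2 differences from the other classes were 0.48, 0.87, 0.49 and 1.61. The other members held higher in muscle in all 3 scalings were PSMA3, PSMA5, PSMC5, PSMD1, PSMD3 and PSMD13. PSMD1 is the large scaffold of the base, PSMC5 an ATPase, and PSMD13 a lid protein.

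PSME1, PSME2, PSMB9 and PSMC3IP were held lower in muscle in all 3 scalings. PSMB8 and PSMA8 were too, but the filter on low levels favours their calls. The difference was -0.78 ± 0.07 for PSME1, -0.34 ± 0.07 for PSME2 and -0.43 ± 0.07 for PSMB9. PSME4 thus went the other way from PSME1 and PSME2. Relative to the 18 constitutive genes it was 3.08-fold higher in muscle (log2 1.62 ± 0.48 SD, 8 of 8 breeds) and PSMD11 1.70-fold (0.76 ± 0.30, 8 of 8). The direction of PSME3 in muscle depended on the scaling: it was called higher with the scaled values (0.32) and with quantile normalization (0.12), called lower on the deposited FPKM (-0.52), and stood at -0.68 ± 0.16 relative to the constitutive genes (8 of 8 lower). PSME4 correlated with PSMD12 at 0.92 and with PSMD11 at 0.90 over the 83 libraries, and at 0.57 and 0.56 with tissue means subtracted. With PSME1 it correlated at -0.43, with PSME2 at -0.07 and with PSME3 at 0.49 over the 83 libraries.

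The 2 skeletal muscles were compared within 10 breeds, and heart with both muscles within 9. In psoas major against longissimus dorsi, 1 of 23 tested members was higher and 6 lower, against 12.7% and 15.1% of all genes. The members' median was -0.09 and that of all genes -0.01. PSME4 was higher in psoas major in 10 of 10 breeds, by 0.08 (Bamei) to 1.88 (Piétrain) on the log2 scale, with a mean of 0.61 ± 0.14 SE (limma adjusted p 0.00875). PSME1 was lower in 9 of 10 breeds (-0.40 ± 0.08, adjusted p 0.00439) and PSME2 in 8 of 10 (-0.34 ± 0.09, adjusted p 0.0131). Among the ATPases PSMC5 was lower in 9 of 10 breeds (-0.37, adjusted p 0.00688) and PSMC3 in 10 of 10 (-0.33, adjusted p 0.00144). The ubiquitin receptor PSMD4 was lower in 10 of 10 (-0.27, adjusted p 0.00511), and PSMD6 by a difference of -0.22 (adjusted p 0.039). In all 3 scalings PSME4 stayed higher and PSMC3, PSMC5, PSME1 and PSME2 lower, against 9.23% and 12.1%. Without the breed block no member was called in either direction, where 2.61% of all genes were higher and 2.72% lower.

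Heart held more PSME1 and PSME2 than skeletal muscle, and less PSME4 and less of the lid genes PSMD3, PSMD11 and PSMD12. Of 25 tested members 4 were higher and 15 lower, against 35.5% and 33.7% of all genes, and the members' median was -0.48 where all genes had 0.01. PSME4 was lower in 9 of 9 breeds (-1.49 ± 0.17 SE, limma adjusted p 1.54e-07), as were PSMD11 (-1.44 ± 0.14), PSMD3 (-1.01 ± 0.13) and PSMD12 (-0.96 ± 0.13). PSME1 was higher in 9 of 9 (0.91 ± 0.09, adjusted p 2.3e-08), PSME2 in 9 of 9 (0.61 ± 0.09) and PSMB9 in 6 of 9 (0.24 ± 0.09, adjusted p 0.0233). In all 3 scalings 4 were higher and 7 lower, against 33.4% and 15.1%. The 4 were PSME1, PSME2, PSMB9 and PSMC3IP, which is no subunit. PSME3 was not called with the scaled values. Leukocyte markers were also higher in heart, 8 of 9 tested in all 3 scalings, and their part in the PSME1, PSME2 and PSMB9 differences was not tested.

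**Figure D4:**
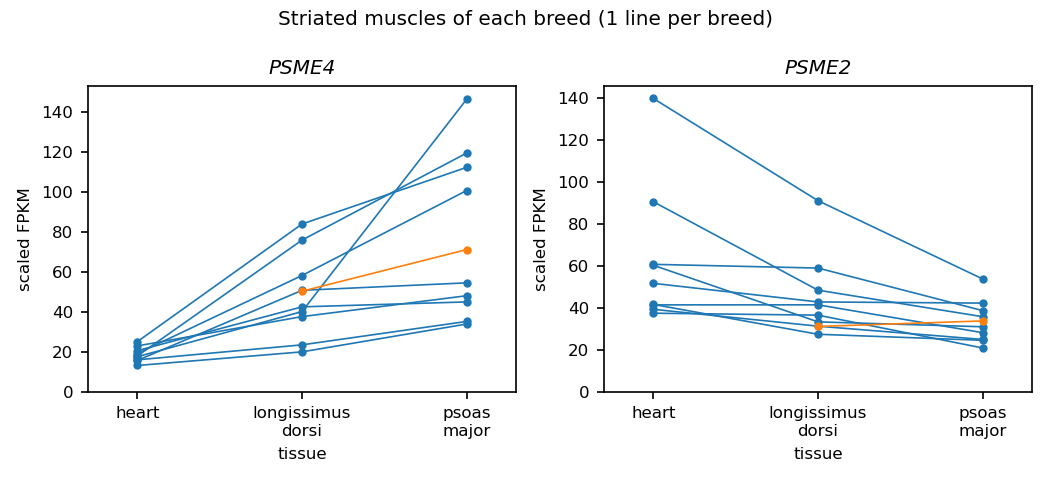
Scaled FPKM of PSME4 and PSME2 in heart, longissimus dorsi and psoas major, with 1 line per breed and Tibetan wild boar, which has no heart library, in orange. PSME4 is higher in psoas major than in heart in each of the 9 breeds with a heart library and reaches 146 in Piétrain, and PSME2 is higher in heart than in the mean of both muscles in all 9 breeds.

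Some other genes of ubiquitin-dependent breakdown were also higher in muscle. Of the ubiquitin ligases known from muscle wasting, 3 of 4 were higher in all 3 scalings: TRIM63 (6.60 ± 0.14 on the log2 scale), which tags thick filament proteins, FBXO32 (2.78 ± 0.21) and FBXO30 (1.24 ± 0.08). The fourth, MUL1, was called in opposite directions by different scalings. In heart 2 of the 4 were held higher as well, against 16.5% of all genes. Heart against skeletal muscle had 1 of the 4 held lower, against 15.1%. Among 8 tested shuttle and p97 genes 4 were higher in all 3 scalings, among them RAD23B (1.25 ± 0.03), which carries ubiquitinated proteins to the proteasome, the unfoldase VCP (1.04 ± 0.06) and its cofactor NPLOC4 (1.02 ± 0.08). Of 6 proteasome-associated factors 3 were higher, ECPAS (1.94 ± 0.05), which binds proteasomes, the deubiquitinase UCHL5 (1.18 ± 0.05) and TXNL1 (1.11 ± 0.05), and the other 3 went in opposite directions by scaling. Of 4 tested ubiquitin and ubiquitin-activating genes 1 was held higher, 1 lower, and 2 were called in opposite directions. The ubiquitin-activating enzyme UBA6 was lower with the scaled values (-0.46 ± 0.04). Of 3 tested genes for transcription control of the proteasome 0 were held higher or lower, and 1 was called in opposite directions. As above, 11.9% of all genes were held higher in muscle and 47.1% lower.

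In ovary PSMA8 and PSMC3IP, both linked to germ cells, had their highest levels. PSMA8 had a lowest, median and highest level of 0.403, 2.34 and 3.53 there, was 0.0782 in the spleen of Bamei and listed at 0 in all other tissue libraries. PSMC3IP had 7.91, 23.7 and 39.9 in ovary, and its next highest median was 2.37 in spleen. For both genes all 9 ovaries lay above all libraries of the other tissues. PSMC3IP was 11.9-fold higher in ovary than in the other classes (log2 difference 3.58 ± 0.12 SE, limma adjusted p 4.01e-40), and PSMA8 differed by 1.59 ± 0.06, a value that its filter on low levels favours. PSMC3IP was higher than in each other class in all 3 scalings, as were 13.4% of all genes. The Meishan ovary was lowest for both, and also for the oocyte genes ZP3 (96.9, against 189 to 517 in the other 8), ZAR1 (25.2) and PADI6 (33.8). The share of oocytes in each sample was not measured.

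Of the 27 members 5 were higher and 14 lower in ovary, against 40.7% and 40.9%, and the members' median was -0.18 where all genes had -0.02. The 5 include PSMA8, whose call the filter favours, and PSMC3IP, which is no subunit. Without the Meishan ovary 8 were higher, against 40.2% of all genes. PSMD3 (0.25) and PSMD6 (0.24), both of the lid, and the ATPase PSMC3 (0.22) were higher in all 3 scalings. PSME4 (-1.49 ± 0.12, adjusted p 1.69e-18), PSMA3 (-0.99), PSME2 (-0.93) and PSMC6 (-0.90) were the lowest, and all 4 stayed lower in all 3 scalings. Against 20.9% of all genes, 6 members did so. Relative to the 18 constitutive genes, PSME4 was 2.60-fold lower in ovary (log2 -1.38 ± 0.22 SD, 8 of 8 breeds). The assembly factors PAAF1 (0.73 ± 0.07) and PSMG3 (0.81 ± 0.10) were the only 2 of their list tested and were higher in ovary in all 3 scalings, where 35.2% of all genes were.

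Subcutaneous adipose was marked by PSMD5, a chaperone that holds ATPases during assembly of the base and restrains the finished cap. It had 10.5, 17.0 and 23.2 in adipose and 10.3, 15.3 and 19.2 in liver, ranges that overlapped and did not differ (adjusted p 0.121). Medians in the other tissues ran from 6.54 in lung to 9.52 in psoas major. PSMD5 was 1.86-fold higher in adipose than in the other classes (0.90 ± 0.07 SE, limma adjusted p 2.12e-18). Relative to the 18 constitutive genes it was 2.28-fold higher in adipose (log2 1.19 ± 0.46 SD, 8 of 8 breeds) and stood at -1.03 ± 0.38 in muscle (8 of 8 lower). With the scaled values the muscle difference of PSMD5 itself was -0.02 and not called, while the constitutive genes were called higher there. PSMC3 (0.38) and PSMC5 (0.22) were the other members higher in adipose in all 3 scalings, where 25.5% of all genes were, and 12 were lower, against 41.8%. Among those 12 the deubiquitinase PSMD14 fell by 0.70, the base scaffold PSMD1 by 0.67 and PSME3 by 0.47. All 5 skeletal muscle markers were also called higher in adipose (median log2 difference 1.96), with a highest summed level outside muscle of 2330 scaled FPKM against at least 16389 in muscle, and their part in the adipose values was not tested.

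In kidney the lowest subunits were PSME2 (-0.87), PSMC3 (-0.75), PSMD3 (-0.69) and PSME1 (-0.65), and PSMC3IP lay at -0.92. In lung they were PSMB7 (-0.95), PSMD13 (-0.87), PSMC1 (-0.81) and PSMC5 (-0.79), and these 4 were among the 7 members held lower in all 3 scalings, where 20.4% of all genes were. PSMB9 was the 1 member held higher in lung, against 27.4%, and PSMB8 lost its call there without Bamei. The largest differences in liver were those of PSMD3 (0.93), PSME2 (0.89), PSMB1 (0.87) and PSMA3 (0.85), of which PSMD3 and PSMA3 were held in all 3 scalings.

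Breed took a larger share of the variance of PSMB9, PSME1 and PSME2 than of any other member. Breed accounted for 26.3% of the variance of PSME2, 25.4% of PSMB9 and 17.8% of PSME1, and the next highest member was PSMD6 at 14.0%. PSME3 had 8.33%. Each breed is described by its mean deviation from the tissue means. Meishan was above them for PSME2 in 9 of 9 tissues (log2 0.84 ± 0.30 SD), for PSMB9 in 9 of 9 (0.60 ± 0.29) and for PSME1 in 8 of 9 (0.51 ± 0.36). Hampshire was above for PSME2 in 9 of 9 (0.51 ± 0.37). Jinhua (-0.40 ± 0.21), Piétrain (-0.40 ± 0.14) and Landrace (-0.27 ± 0.19) lay below for PSME2 in all 9 tissues. PSME4 did not follow them, and its most deviating breeds were Rongchang (-0.46 ± 0.44, 1 of 8 above) and Large White (-0.32 ± 0.36, 1 of 9 above).

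**Figure D5:**
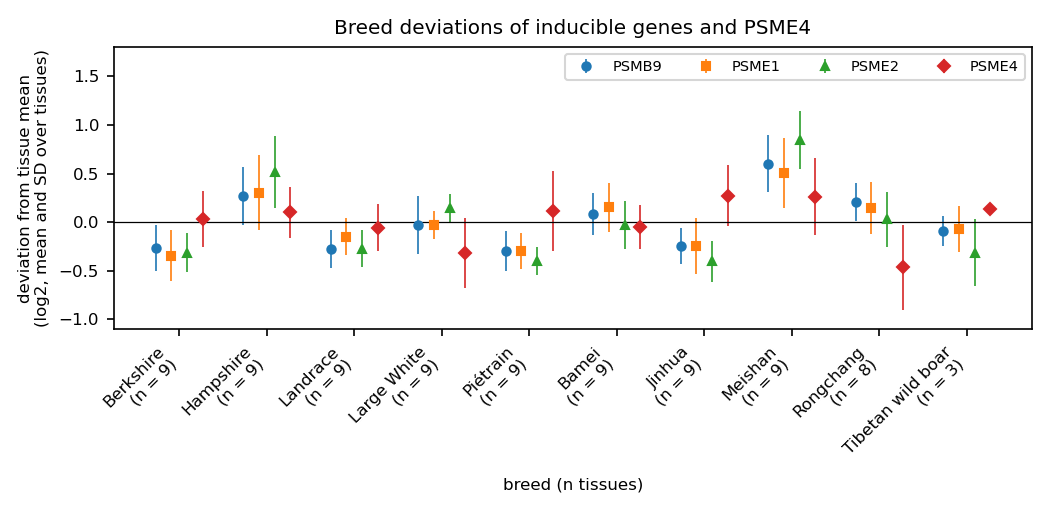
Mean deviation from the tissue mean (log2 scaled FPKM plus 1) of PSMB9, PSME1, PSME2 and PSME4 for each breed, with bars of 1 SD over its tissues. Meishan is above 0 for PSMB9, PSME1 and PSME2 (0.60, 0.51 and 0.84), Hampshire is next, and Jinhua and Piétrain are below 0 for the same 3 genes.

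The interferon response list moved in part with these breeds. Its mean deviation was 1.46 ± 0.34 in Meishan and 1.32 ± 0.29 in Hampshire, both above in 9 of 9 tissues, and -1.03 ± 0.38 in Berkshire, -0.88 ± 0.17 in Landrace and -0.38 ± 0.30 in Piétrain. Jinhua went against this order, with 0.25 ± 0.37 for the interferon list and low PSME2. Leukocyte genes were highest in Rongchang (0.48 ± 0.26) and Meishan (0.37 ± 0.27) and lowest in Jinhua and Berkshire (-0.32 each). With tissue means subtracted, PSME2 correlated with the interferon list at 0.79, with the leukocyte list at 0.62 and with the antigen presentation list at 0.88 over 83 libraries, and PSME1 with PSME2 at 0.89. The part of either in the breed differences was not tested. Each breed and tissue is a single library, each breed was deposited as its own table, and breed, animal and table cannot be told apart.

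No member was called between Chinese and Western breeds. Over the 8 tissues without lung, 0 of 27 members were called by limma in either direction, where 0.165% of all genes were higher and 0.147% lower in Chinese breeds. At an unadjusted p under 0.05 there were also 0, against 8.30% of all genes. PSMB9 had a difference of 0.27 ± 0.18 SE (adjusted p 0.782), PSME1 of 0.23 ± 0.17 (adjusted p 0.825), and the members' median was -0.05 against 0.0035 over all genes. Within single tissues 0 members were called by limma in any of 9, against 0.111% of tests over all genes. At an unadjusted p under 0.05 there were 4 of 24 in adipose, against 8.50% of all genes, and 1 each in heart, spleen and psoas major, against 7.48%, 5.08% and 4.75%. The 4 in adipose were PSMC1, PSMC3, PSMD12 and PSMD13, all lower in Chinese breeds. In the limma test of whether the tissue profile differs by origin 0 of 27 members were called, against 2.42% of all genes. PSMB8 alone had an unadjusted p under 0.05 (0.0161), where 10.5% of all genes did. With 5 breeds or fewer a side, the absence of calls does not show that members are alike in both origins.

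In the mixtures 2 members were higher than the mean of the 9 tissues of the same breed and 20 lower, against 31.3% and 29%. PSMB9 (0.28 ± 0.09 SE, limma adjusted p 0.00854) and PSME2 (0.21 ± 0.09) were the higher ones, 1 of which lost its call without Berkshire, Landrace, Large White, Piétrain or Jinhua, and PSME4 (-0.47 ± 0.12) and PSMD11 (-0.39 ± 0.11) had the lowest values. The members' median was -0.22, against -0.02 over all genes. In all 3 scalings 0 were higher and 8 lower, against 20.6% and 17.5%. Since the composition is not given, these values say only how the mixtures lie against an even mean of tissues.

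The genes whose levels followed the members most closely over the 83 libraries were named by a fixed rule, the 6 highest Pearson correlations. Those most like the mean of PSMB8 and PSMB9 were CD48 (0.90), a surface protein of leukocytes, the integrin ITGB7 (0.90), GIMAP4 (0.90), TMEM156 (0.90), GPSM3 (0.90) and EBI3 (0.90), a cytokine subunit. Since PSMB8 passed the low-level filter only through spleen, a mean that holds it favours genes high in spleen, and these 6 are not counted as support. With tissue means subtracted, PSMB8 correlated with PSMB9 at 0.21. Those most like the mean of the 5 alpha and constitutive beta genes were VCP (0.90), PTRH2 (0.90), PLAA (0.89), SLC29A1 (0.88), RAD23B (0.88) and MRPL24 (0.87). VCP, PLAA and RAD23B are themselves parts of the ubiquitin system. These correlations run over libraries that share tissue, breed and scaling, and no test is given for them.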

How the data were processed

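RNA of 92 pig libraries (TRIzol, TruSeq RNA kit, per the labels' protocols) was deposited by the authors as FPKM per gene in 10 tables (each holding a single breed) and made with TopHat and Cufflinks 2.2.1 on Sscrofa10.2, per the submitters' processing notes. Annotation, options and filters are not given in the sources used here. Depth is unknown, so no counting interval is given. Tables were made separately, so levels across breeds rest on the scaling applied here. Gene symbols came from a separate table of names by gene ID, and no genome or sequence was used. The members and lists were chosen with earlier results of these data known.

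FPKM were scaled by median ratios among the libraries of each fit, genes with 3 or more libraries at 1 FPKM were tested, and log2(scaled FPKM + 1) was fitted with limma 3.58.1 (trend and robust options, statmod 1.5.0, R 4.3.3, package data.table in version 1.17.8). Breed was a block, except in 2 kinds of origin test. The origin test over 8 tissues ran on 1 mean level per breed, and those within a tissue on single libraries, both without a block. Adjusted p are limma p, two-sided apart from the F tests, Benjamini-Hochberg over all genes, called under 0.05. Those of the PSMB9 to PSMB7 ratio are instead exact sign-flip p, adjusted over 8 classes. Fold changes with the pseudocount of 1 understate those of low genes. The 8 mixtures of breeds with all 9 tissues entered the mixture comparison. The inducible to constitutive ratios first planned needed subunits not analysed here, so PSMB9 to PSMB7 was used, with an exact sign-flip test over the 8 breeds with all tissues. Named members were the inducible, constitutive catalytic, activator and tissue-restricted genes, and up to 4 called per direction with the largest difference in each comparison. Per list up to 3 called genes with the smallest adjusted p were named, and some genes of the lists are not reported here by name. The 9 libraries of a breed share its number: deviations from tissue means correlated at a median of 0.179 within a breed and -0.023 between breeds, and psoas major with longissimus dorsi at 0.304 to 0.509 in 10 of 10 breeds. Scripts were tested on simulated data. Alternatives were deposited FPKM, quantile normalization, a pseudocount of 0.1, no filter on low values, no block and leaving out each breed. Figures were drawn with matplotlib 3.10.9, and tables were handled in Python 3.11.15 with pandas 2.3.3, numpy 2.4.6 and scipy 1.17.1.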

Additional observations from a re-analysis of the deposited data

Results flagged for a closer look

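A single library stood far from the others of its tissue in 12 of 74 gene and tissue groups checked with Dixon's 95% limit. That limit flags about 1 in 20 groups by chance if values are normal and groups independent. Here the values are scaled FPKM without logarithm and flagged groups share libraries, so the rate expected by chance is not known. Values are scaled FPKM, followed by the next value and the tissue median. Hampshire was highest in kidney for PSMB7 (90.9, next 74.6, median 67.1), for PSME4 (10.8, next 8.89, median 8.22) and for PSMD11 (42.4, next 31.7, median 29.8), and in adipose for PSME1 (254, next 175, median 124). Meishan was highest in longissimus dorsi for PSMB9 (2.34, next 1.22, median 0.447) and PSME2 (91.0, next 58.9, median 38.9), and in liver for PSME2 (139, next 94.9, median 76.8). Berkshire was highest in liver for PSMB7 (188, next 163, median 153) and in heart for PSME3 (34.5, next 29.4, median 27.6). Large White was highest in liver for PSMB8 (0.470, next 0.202, median 0) and lowest in ovary for PSMD11 (20.6, next 24.5, median 25.6). Bamei was the only spleen with PSMA8 above 0 (0.0782), so this group was bound to be flagged.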

How the results depend on the processing

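Scaling mattered most, and the cause was not tested. Each count of members is followed by the share of all genes called the same way in the same fit. For fits that leave out 1 breed this share was not computed, and their counts show only how far the calls moved. On the deposited FPKM the members higher and lower were 3 (16.6%) and 10 (67.5%) in heart, 4 (15.6%) and 11 (72.7%) in liver, 13 (46.7%) and 4 (36.4%) in spleen, 5 (57.8%) and 7 (21.1%) in lung, 10 (11.9%) and 12 (81.0%) in muscle, 16 (64.0%) and 6 (21.0%) in ovary, and 8 (61.6%) and 7 (15.1%) in heart against muscle. Kidney then had 2 higher (42.0%) and the mixtures 8 lower (18.01%), and 7 members in spleen (10.7%) and 4 in muscle (2.83%) were higher than in each other class. With quantile normalization liver had 6 higher (28.3%) and 7 lower (49.5%), spleen 12 higher (36.8%), ovary 12 higher (38.2%), psoas major 2 higher (14.4%) and the mixtures 0 higher (20.8%). Without the replicate block (breed), lung had 1 higher (30.2%), 2 members in spleen were above each other class (9.21%), psoas major against longissimus dorsi had 0 higher (2.61%) and 0 lower (2.72%), and the mixtures 0 higher (29.4%). The block moved no other count of calls by over 1.5 times. The alternatives added after seeing the data gave 8 higher (40.2%) in ovary without the Meishan ovary, and 1 higher (17.4%) in mixtures with the mean of FPKM as reference. Leaving out 1 breed gave 1 to 2 higher in lung, 4 to 8 in ovary, 2 to 4 in spleen above each other class, 1 to 2 in the mixtures, and a PSMB9 to PSMB7 ratio of -1.77 to -1.30 in ovary, which lost its call at -1.70, -1.66, -1.56, -1.54, -1.49, -1.39 and -1.30.

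Signs changed, on the deposited FPKM, for PSME1, PSME2 and PSME3 in heart (-0.12, -0.034 and -0.13), PSMD11, PSME1 and PSME3 in liver (-0.17, -0.076 and -0.20), PSME1 and PSME3 in lung (0.25 and 0.070), PSMB7 and PSME3 in muscle (-0.26 and -0.52), and PSMB7 and PSMD11 in spleen (0.0035 and 0.073). With quantile normalization they changed for PSME1 in heart (-0.044), PSMB1, PSMB7, PSMD11 and PSME1 in liver (-0.030, -0.086, -0.077 and -0.33), PSME1 in lung (0.16) and PSMB9 in the mixtures (-0.24). Of the single-gene values, 1064 kept direction and call when a breed was left out and 30 lost the call, and 597 did under the other alternatives, where 43 lost it. Depth is unknown, which limits PSMB8, PSMB9 and PSMA8, all near 1 FPKM or below in most tissues.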
